A study of Mus musculus with 10 samples.

Results

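The caspases are proteases that carry out programmed cell death or switch on inflammatory cytokines, and the apoptosome is the complex that starts them once mitochondria leak cytochrome c. The genes followed here were 8 of the 27666 on the array: the caspases Casp1, Casp2, Casp6, Casp8 and Casp9, the apoptosome scaffold Apaf1, the caspase inhibitor Xiap and its mitochondrial antagonist Diablo. They were chosen by symbol, with earlier results of these data known. Every non-control probe naming one of them was taken, 13 of 41174 probes. All 8 genes and all 13 probes were bright enough to be tested, among 21111 genes and 31599 probes that were.

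The samples were whole lungs of male mice, 8 weeks old, frozen after 30 min of aerosolized saline. One group was wild type and the other lacked p53, with 5 arrays in each, both labelled as C57BL/6J. The labels name neither the p53 allele nor the litters. Each array carried 1 RNA sample, described by the submitters as a biological replicate, and no infected lung was among these samples.

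In the mitochondrial pathway, cytochrome c binds Apaf1, which assembles into a wheel that recruits and activates Casp9. Casp9 then cleaves the executioner caspases, unless Xiap blocks it, and Diablo released from mitochondria lifts that block. Casp8 starts the same end through death receptors, Casp2 through its own platform after DNA damage, and Casp1 cuts interleukin precursors and gasdermin in inflammasomes. p53 is a transcription factor that induces genes of cell death, and Apaf1 is a well-known target of it.

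The genes with more than 1 probe were read at different places, and the results below are given probe by probe. The first 30 of the 60 bases of each such probe, and of the single Casp1 probe, are printed from the array files in the order of the probe, 5′ to 3′, and no letter is set in capitals.
Apaf1 A_51_P417701: aacaaaatcttgtatagggttaaggaaggt
Apaf1 A_51_P368696: ggtaaattctttgatgcattcaaattggtt
Apaf1 A_52_P621991: ccattggaaaacaagacaaatctgggcttc
Xiap A_51_P301216: agtatggttgtgtaaaaaatggtcactcgg
Xiap A_52_P933175: atatttcaagcattctgccaggaatagttt
Xiap A_51_P424893: gaaaccttagacagagaagcattttatagc
Diablo A_51_P494929: cacacccttaagttcagtagctgtttaact
Diablo A_52_P244034: ctgtaagatactagaaggactaagtagaac
Casp1 A_51_P142861: ggttcgattttcatttgaacaaccagaatt

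The files place the Apaf1 probes on the minus strand of mm7 at chr10:90548607-90548666, chr10:90549877-90549936 and chr10:90625947-90626006, in the order printed, so that they spread over 77400 bases. The Xiap probes lie close together on the plus strand, at chrX:37199585-37199644, chrX:37199182-37199242 and chrX:37197438-37197497, over 2207 bases. The Diablo probes lie on the minus strand at chr5:122755681-122755740 and chr5:122759701-122759760. The Casp1 probe covers 503 bases of the plus strand, chr9:5223467-5223969, with 60 bases of sequence, so it crosses a splice junction. Single probes read Casp2 (chr6:42225350-42225409, plus strand), Casp6 (chr3:129752889-129752948, plus), Casp8 (chr1:59095846-59095905, plus) and Casp9 (chr4:141194312-141194371, plus). Exons and UTRs on mm7 were not analysed here.

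Signals are given as log2 intensity relative to the 75th percentile of each array's spots, a value comparable between arrays for 1 probe but not between probes. Differences are p53-null minus wild type on that log2 scale, ± SE from limma with n = 5 per group unless stated. A gene or probe was called when its Benjamini-Hochberg adjusted p over all genes (or all probes) was below 0.05. In whole lung, fewer cells of a type and less RNA per cell cannot be told apart.

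Between 71.4% and 84.0% of spots on an array were well above background. A Trp53 probe printed in 10 spots checked the genotype labels: it read -1.67 to -1.43 on wild-type arrays 1 to 4 and -3.15 to -2.66 on the p53-null arrays, but -2.22 on wild-type array 5, which lay between the groups. Another Trp53 probe did not separate them (0.31 ± 0.28 on the log2 scale, limma adjusted p = 0.504), and whether either lies in the deleted part is not given by the labels. Wild-type array 5 stood apart for most of the transcriptome, outside the range of the other 4 wild-type arrays at 68.4% of 31596 tested probes and on the p53-null side of them at 57.5%. Among the member probes it was outside at 10 of 13, and on the p53-null side at 8. Its signal deviations also rose with probe GC content (correlation 0.35, against -0.32 to 0.0034 on the other wild-type arrays and 0.0043 to 0.20 on the p53-null arrays). Values for the members are therefore given with all 10 arrays and without wild-type array 5. The latter leaves wild-type arrays whose correlations are mostly negative against p53-null arrays whose correlations are all positive. The choice of array 5 was made from these same data, in which it lay mostly on the p53-null side. Leaving out such an array tends to widen group differences and narrow the wild-type spread. The p-values without it do not allow for this choice. Lung epithelial genes, the check of the tissue label, were at like levels in both groups, with a list mean of 4.49 to 4.69 in wild-type and 4.42 to 4.69 in p53-null lung and 0 of 10 genes called by limma (0 of 10 at an unadjusted p under 0.05 as well). Skeletal muscle genes were high on 3 arrays (wild-type 2, p53-null 4, p53-null 5), and squamous epithelial genes on the first and last of these.

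With all 10 arrays, 0 of the 8 genes passed the limma threshold, where 7.46% of all genes tested did, and for 0 of them were the groups free of overlap, against 9.31% of all genes. At an unadjusted p under 0.05 there were 2, Casp1 and Xiap, against 5824 of 21111 genes. Their estimated differences were small, from -0.24 for Apaf1 to 0.40 for Casp1, with 5 of 8 positive and a median of 0.084 against 0.050 over all genes tested. Without wild-type array 5, 4 of 8 were called, Casp6 and Diablo higher and Apaf1 and Xiap lower, where 31.3% of all genes were called. The members' median was then 0.14 against 0.079.

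**Figure D1:**
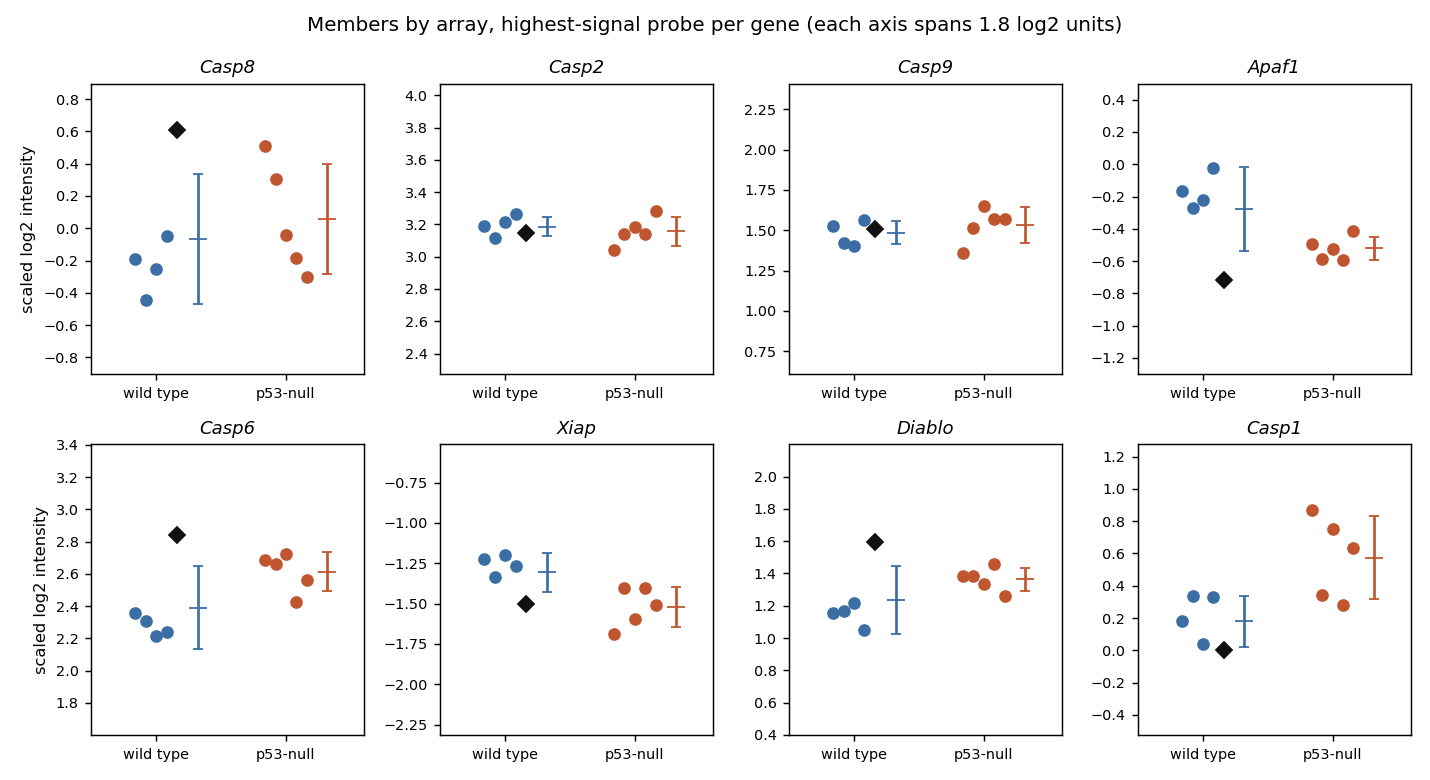
Scaled log2 intensity of the 8 genes on each array, 1 panel per gene, each read by its probe of highest mean signal. Blue points are wild-type arrays 1 to 4, the black diamond is wild-type array 5, orange points are the p53-null arrays in order of replicate number, and crosses with bars give the group mean and SD (n = 5). The diamond lies above the other wild-type points for Casp8 (0.61), Casp6 (2.84) and Diablo (1.59). It lies below them for Apaf1 (-0.72), Xiap (-1.50) and Casp1 (0.0005).

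Among the caspases that start apoptosis, no difference passed the threshold. Casp8, the protease at death receptors, read -0.19, -0.44, -0.25, -0.051 and 0.61 on wild-type arrays 1 to 5 and 0.51, 0.30, -0.040, -0.19 and -0.30 on p53-null arrays 1 to 5. It varied more within each group than any other of the 8 genes, and the groups overlapped fully. The difference was 0.12 ± 0.22 (limma adjusted p = 0.764, 95% interval -0.37 to 0.61), and 0.29 ± 0.17 without wild-type array 5 (limma adjusted p = 0.238). Leaving out p53-null array 1 instead took it to 0.0084.

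Casp2, an initiator activated after DNA damage, was among the steadiest members. It read 3.19, 3.12, 3.21, 3.27 and 3.14 on the wild-type arrays and 3.04, 3.14, 3.18, 3.14 and 3.28 on the p53-null arrays. The p53-null values surrounded the wild-type ones, and the difference of -0.029 ± 0.070 had a 95% interval of -0.18 to 0.13 (limma adjusted p = 0.829). Its sign turned with p53-null array 1 left out, to 6.2e-04. Casp9, the caspase held by the apoptosome, read 1.53, 1.42, 1.40, 1.57 and 1.51 in wild-type lung and 1.36, 1.51, 1.65, 1.57 and 1.57 in p53-null lung. Again the ranges overlapped, with a difference of 0.047 ± 0.076 and an interval of -0.12 to 0.22 (limma adjusted p = 0.734), which turned to -0.024 when arrays were scaled by their median. For both genes wild-type array 5 lay inside the range of the other wild-type arrays, and leaving it out gave -0.040 ± 0.067 for Casp2 and 0.052 ± 0.075 for Casp9. These intervals bound the change of Casp2 and Casp9 transcripts more closely than those of the other members, but a p above the threshold does not show that the levels were equal.

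Apaf1, the scaffold of the apoptosome, was lower on every p53-null array than on wild-type arrays 1 to 4. The probe of highest signal, A_51_P417701, read -0.17, -0.27, -0.22, -0.024 and -0.72 on wild-type arrays 1 to 5 and -0.49, -0.59, -0.53, -0.59 and -0.41 on the p53-null arrays. Wild-type array 5 was the lowest of all 10, so the groups overlapped through that array. With it the difference was -0.24 ± 0.12 (limma adjusted p = 0.229), a ratio of 0.845. Without it the difference was -0.35 ± 0.071 (limma adjusted p = 0.0070), a ratio of 0.783. Each of the other 9 arrays left out gave no call.

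The second Apaf1 probe, A_51_P368696, separated the same arrays with a wider gap. It read -4.12, -4.02, -3.68, -3.57 and -4.87 in wild-type lung and -4.89, -4.40, -4.57, -4.93 and -4.66 in p53-null lung. All p53-null values lay below wild-type arrays 1 to 4, and wild-type array 5 lay among them. The difference was -0.64 ± 0.23 (limma adjusted p over all probes = 0.111), and -0.84 ± 0.15 without wild-type array 5 (limma adjusted p = 0.0044). Probe A_52_P621991, which lies far upstream on the gene's strand, did not separate them. It read -5.96, -6.08, -5.92, -5.64 and -5.32 in wild-type and -6.10, -5.54, -5.66, -5.88 and -5.83 in p53-null lung, with p53-null array 1 just below the wild-type range and the other 4 inside it, and was well above background on 5 wild-type and 4 p53-null arrays. Its difference was -0.019 ± 0.16 (limma adjusted p = 0.954), and 0.095 without wild-type array 5. The lower values were thus at the probes of the low-coordinate end and not at the dim probe of the other, though the difference between probes was not tested.

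**Figure D2:**
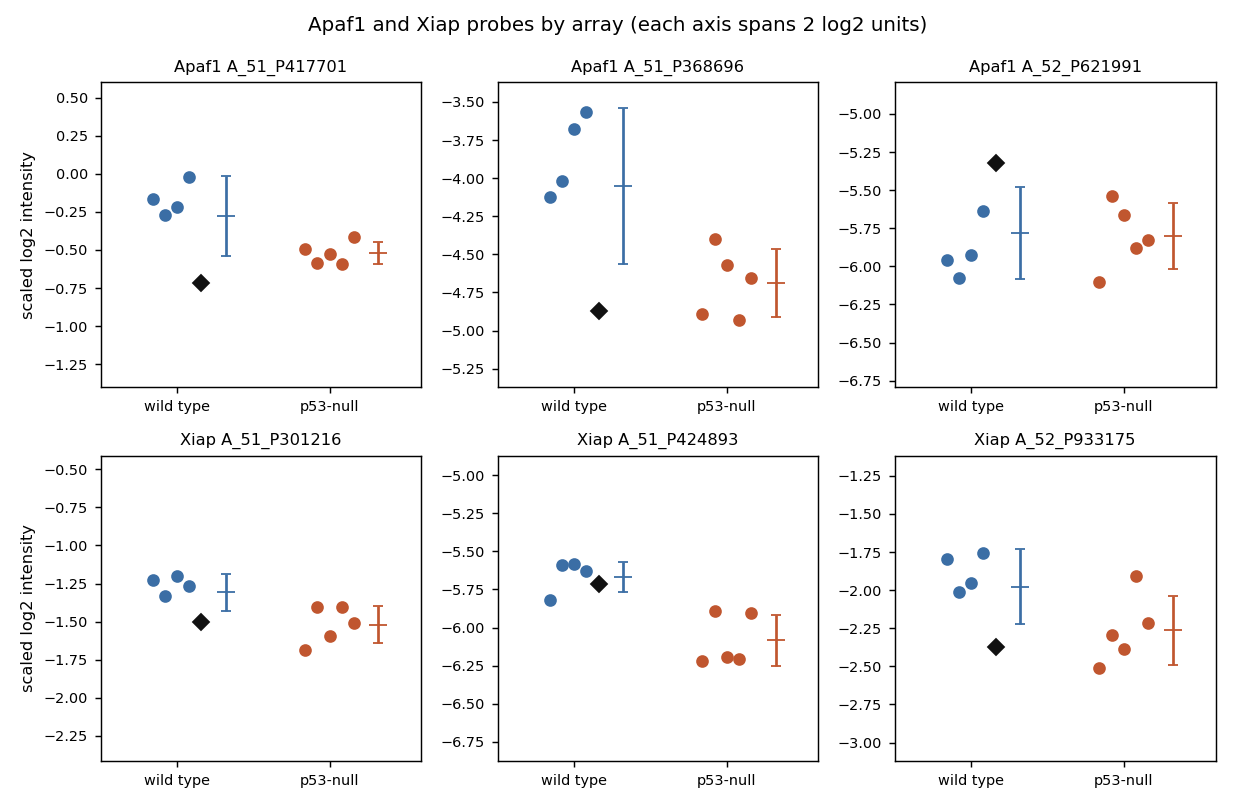
Scaled log2 intensity on each array for the 3 Apaf1 probes (upper row) and the 3 Xiap probes (lower row), with blue points for wild-type arrays 1 to 4, a black diamond for wild-type array 5, orange points for p53-null arrays, and mean with SD (n = 5). Every panel spans the same number of log2 units. Apaf1 A_51_P368696 lies between -4.12 and -3.57 on wild-type arrays 1 to 4 and between -4.93 and -4.40 on p53-null arrays, while Apaf1 A_52_P621991 overlaps throughout, and Xiap A_51_P424893 separates the groups.

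Casp6, an executioner caspase that cleaves nuclear lamins, read 2.36, 2.31, 2.22, 2.24 and 2.84 on wild-type arrays and 2.69, 2.66, 2.72, 2.43 and 2.56 on p53-null arrays. All 5 p53-null arrays lay above wild-type arrays 1 to 4, and wild-type array 5 above all of them. The difference was 0.22 ± 0.13 (limma adjusted p = 0.285), which is 16.6% higher, and without wild-type array 5 it was 0.33 ± 0.076 (limma adjusted p = 0.0116), or 26.0% higher. With each array's trend of signal on probe GC content taken out as well, a setting added once the data had been seen, it was 0.20 ± 0.089 and not called (limma adjusted p = 0.137).

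Xiap, which binds and inhibits active caspases, had a negative difference at all 3 of its probes, whichever single array was left out. Its probe of highest signal, A_51_P301216, read -1.23, -1.33, -1.20, -1.27 and -1.50 in wild-type lung and -1.69, -1.41, -1.60, -1.41 and -1.51 in p53-null lung. All 5 p53-null values were below wild-type arrays 1 to 4, and 3 were below wild-type array 5 too. The difference was -0.21 ± 0.089 (limma adjusted p = 0.151), a ratio of 0.862, and -0.26 ± 0.077 without wild-type array 5 (limma adjusted p = 0.0301). Probe A_52_P933175 read -1.79, -2.01, -1.95, -1.76 and -2.37 against -2.51, -2.30, -2.39, -1.91 and -2.21. Here 2 of 5 p53-null arrays lay below every wild-type array, and 4 below wild-type arrays 1 to 4. The difference of -0.29 ± 0.15 did not pass (limma adjusted p over all probes = 0.237), and without wild-type array 5 it was -0.38 (limma adjusted p = 0.0443).

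The dimmest Xiap probe, A_51_P424893, was the only member probe of 13 called with all 10 arrays, where 7.10% of all tested probes were called and 3.10% were called lower. It read -5.82, -5.59, -5.58, -5.63 and -5.71 on wild-type arrays and -6.22, -5.89, -6.20, -6.20 and -5.91 on p53-null arrays. The groups did not overlap, wild-type array 5 included, which held for 9.16% of tested probes and for no other member probe. Its difference of -0.42 ± 0.098 had a limma adjusted p of 0.0365, with all 5 p53-null arrays lower. It was near the floor of detection, well above background on 4 of 5 p53-null arrays, and it was still called in 2 of 10 fits with a single array removed, with adjusted p between 0.0130 and 0.0982. Without wild-type array 5, 7 of 13 member probes were called against 30.6% of all tested probes, among them all 3 of Xiap and 2 of 3 of Apaf1.

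Diablo, the mitochondrial protein that displaces Xiap from caspases, was read by a pair of probes. A_51_P494929 read 1.15, 1.16, 1.22, 1.05 and 1.59 on wild-type arrays and 1.38, 1.38, 1.33, 1.46 and 1.26 on p53-null arrays, so that only wild-type array 5 broke the separation. Its difference was 0.13 ± 0.10 (limma adjusted p = 0.459), and 0.22 ± 0.064 without that array (limma adjusted p = 0.0310). A_52_P244034 read -2.66, -3.43, -2.83, -2.60 and -3.49 against -3.09, -2.73, -2.73, -2.84 and -2.50. It spread widely in wild-type lung and overlapped, with a difference of 0.22 ± 0.20 (limma adjusted p = 0.511) that was 0.099 without wild-type array 5. With the GC trend removed and wild-type array 5 left out, Diablo was not called (0.24 ± 0.10, limma adjusted p = 0.118). Apaf1 at -0.33 ± 0.072 (limma adjusted p = 0.0113) and Xiap at -0.37 ± 0.088 (limma adjusted p = 0.0169) were called lower. Calls were common in that fit: of all genes, 21111 of them bright enough to be tested, 3291 were called lower and 1956 higher. Whether the members were called lower more often than other genes was not tested.

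**Figure D3:**
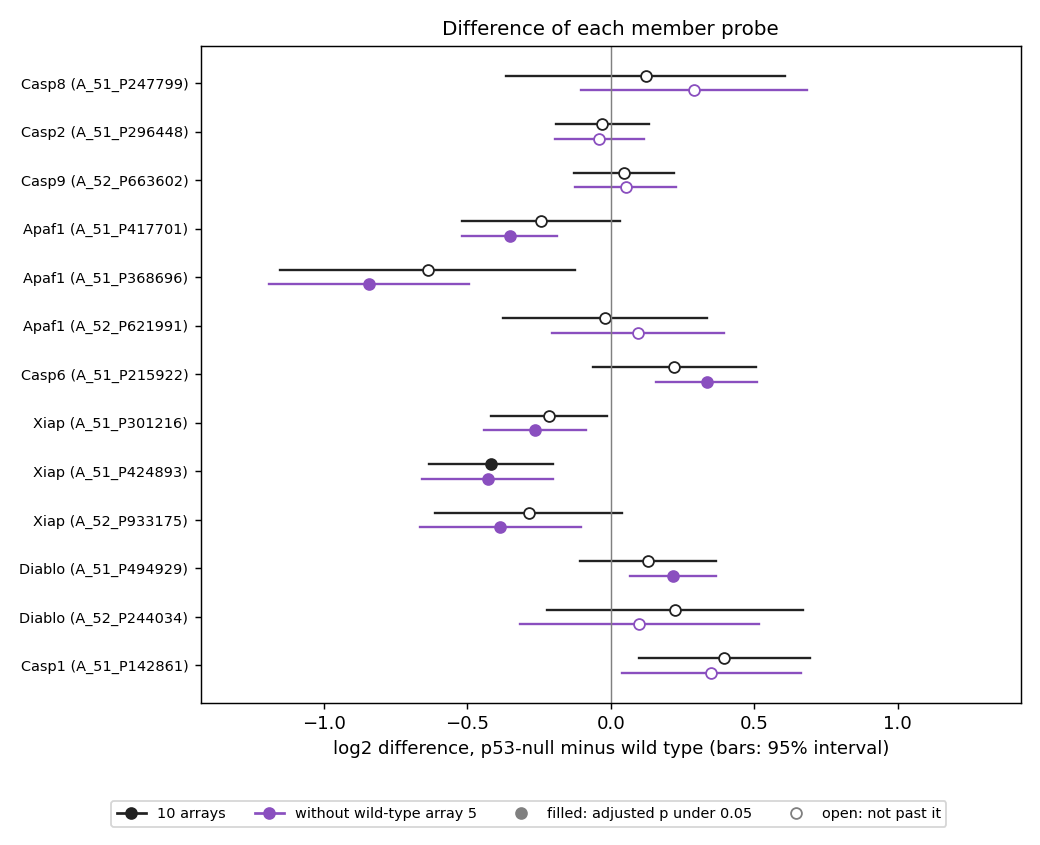
Log2 difference (p53-null minus wild type, x axis) of each of the 13 member probes with its 95% interval, in black with all 10 arrays and in purple without wild-type array 5; filled circles have a limma adjusted p under 0.05 over all probes. One black circle is filled, Xiap A_51_P424893 at -0.42, and 7 purple ones are.

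Casp1, the inflammatory caspase that matures interleukin-1β and opens gasdermin D, had the largest difference of the 8 genes in either direction when each was read by its brightest probe. It read 0.18, 0.34, 0.042, 0.33 and 0.0005 on wild-type arrays 1 to 5 and 0.87, 0.34, 0.75, 0.28 and 0.63 on p53-null arrays. p53-null arrays 1, 3 and 5 were well above every wild-type array, while arrays 2 and 4 sat at the top of the wild-type range. The difference was 0.40 ± 0.13, a mean 31.5% higher, which did not pass (limma adjusted p = 0.0923, 95% interval 0.098 to 0.69). Wild-type array 5, the lowest of the wild-type values here, did not decide it: without that array it was 0.35 ± 0.14 (limma adjusted p = 0.0847), and over all single arrays left out it lay between 0.32 and 0.47 with no call.

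The arrays were spread over slides that offer limited checks within a batch, and no other array was scanned on the day of wild-type array 3. On the only slide that held both groups, p53-null array 2 minus wild-type array 4 gave -0.56 and -0.83 for Apaf1 A_51_P417701 and A_51_P368696 and 0.10 for A_52_P621991, with no replicate. On that slide Xiap gave -0.14, -0.54 and -0.26, Casp6 0.43 and Casp8 0.35. Diablo gave 0.34 at A_51_P494929 and -0.14 at A_52_P244034, Casp2 -0.13 and Casp9 -0.053. Casp1 gave 0.0095 on that slide, much less than its mean difference over all arrays. In the lower range of slide numbers, with wild-type arrays 1, 2 and 5 on one side and p53-null arrays 1, 3, 4 and 5 on the other, the differences were -0.12 for Apaf1, -0.20 for Xiap, 0.46 for Casp1, 0.10 for Casp6, 0.055 for Diablo, 0.0027 for Casp8, 0.011 for Casp2 and 0.052 for Casp9. Without wild-type array 5, the values in that range were -0.29 for Apaf1, -0.27 for Xiap, 0.37 for Casp1, 0.27 for Casp6, 0.20 for Diablo and 0.31 for Casp8. The higher range held only p53-null array 2, against wild-type arrays 3 and 4, and gave -0.46 for Apaf1, -0.17 for Xiap, 0.15 for Casp1, 0.44 for Casp6, 0.25 for Diablo, 0.45 for Casp8, -0.10 for Casp2 and 0.028 for Casp9. Read by the brightest probe, Casp2 turned in sign between the ranges, and Casp8 had no clear direction in the lower one (0.0027 ± 0.30, limma). The other genes had 1 sign in both ranges, with 1 p53-null array in the higher range. The share of all genes that kept 1 sign was not counted. Among further probes, Apaf1 A_52_P621991 (-0.084 and 0.24) and Diablo A_52_P244034 (0.40 and -0.022) turned between the lower and the higher range.

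**Figure D4:**
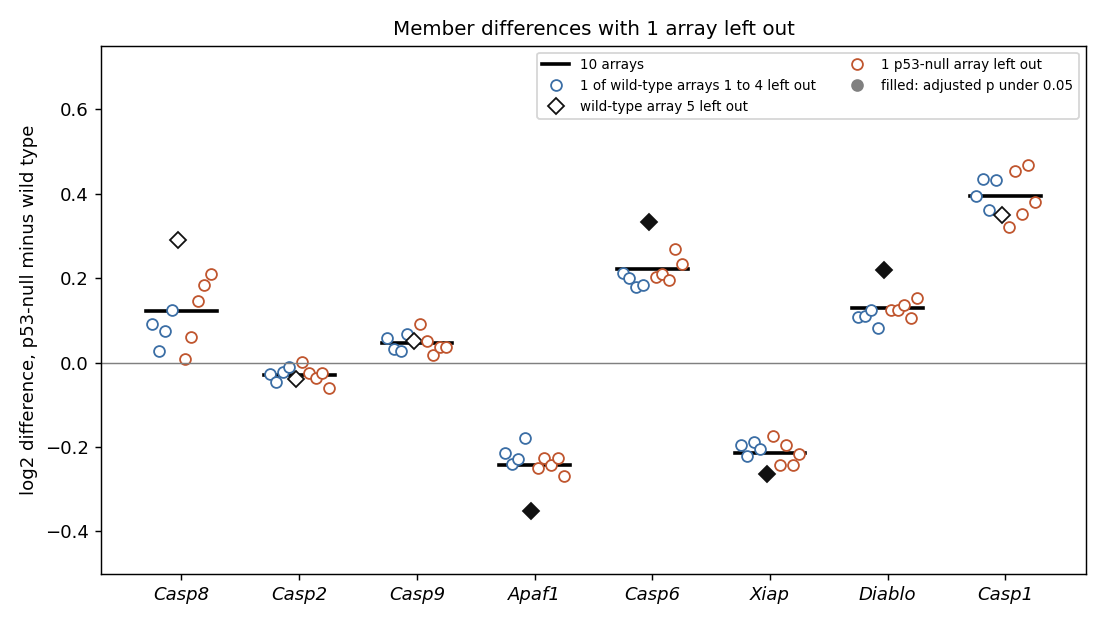
Log2 difference (p53-null minus wild type, y axis) of each of the 8 genes with all 10 arrays (black bar) and with each array left out in turn (blue, wild-type arrays 1 to 4; black diamond, wild-type array 5; orange, p53-null arrays); filled symbols have a limma adjusted p under 0.05. The only filled symbols are diamonds, for Apaf1 (-0.35), Casp6 (0.33), Xiap (-0.26) and Diablo (0.22).

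The promoters of the members differ widely in base composition, and those of Apaf1 and Casp1, the genes with the lowest and highest difference, mark the ends of that range for CpG count among genes with 1 entry. The 250 bases before the start of each are printed from RefSeq (GRCm38.p6), 5′ to 3′ on the gene's strand, with each CG in capitals, from chr10:91082744-91082993 on the minus strand for Apaf1 and chr9:5298267-5298516 on the plus strand for Casp1.
Apaf1 promoter: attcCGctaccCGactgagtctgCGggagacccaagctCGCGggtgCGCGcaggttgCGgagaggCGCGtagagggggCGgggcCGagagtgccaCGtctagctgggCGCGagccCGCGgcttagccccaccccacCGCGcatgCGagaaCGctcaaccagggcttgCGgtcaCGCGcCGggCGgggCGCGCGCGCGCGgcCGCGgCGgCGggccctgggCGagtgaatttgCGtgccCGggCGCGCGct
Casp1 promoter: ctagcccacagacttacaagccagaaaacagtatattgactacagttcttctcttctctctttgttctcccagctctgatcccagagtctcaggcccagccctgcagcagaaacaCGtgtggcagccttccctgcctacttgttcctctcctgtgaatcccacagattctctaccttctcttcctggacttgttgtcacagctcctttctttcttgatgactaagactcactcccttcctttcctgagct

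The Apaf1 stretch holds 42 CG pairs and the Casp1 stretch 1. Over the full 300-base entries, which add 50 bases after the start, Apaf1 had 46 and Casp1 3, with 74.7% and 48.0% GC, against medians of 7 and 52.7% over all 32851 entries. Diablo (42), Casp9 (28), Casp2 (26) and Casp6 (16) were above that median and Casp8 (5) below it, and the 3 Xiap entries held 20, 5 and 2. The p53 half-site consensus, a palindromic motif searched on both strands, was found in 0 of the 10 entries of the 8 genes and in 8.4% of all entries. That says only that these letters are not in these windows.

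The wider pathway was read through 6 lists of neighbouring genes, 42 of whose 44 genes were tested. With all 10 arrays 3 rose and 0 fell, and the 42 had a median difference of 0.21, with 33 positive. Without wild-type array 5, 10 rose and 2 fell, where 17.1% of all genes were called higher and 14.3% lower. With the 10 arrays those shares were 4.58% and 2.88%.

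The partners of Casp1 held 2 of the 3 genes that rose. Gsdmd, which encodes the pore protein cut by Casp1, read 1.14, 0.68, 0.73, 1.06 and 1.23 on wild-type arrays and 1.78, 1.73, 1.71, 1.57 and 1.71 on p53-null arrays. The groups did not overlap, as for 5.44% of all genes in that direction, and the difference was 0.73 ± 0.12 (limma adjusted p = 0.0150). Il1b, the interleukin precursor that Casp1 cleaves, read -1.77, -1.84, -1.38, -1.20 and -1.96 against 0.13, -0.36, -0.63, 0.22 and -0.70. It too separated the groups, at 1.36 ± 0.22 (limma adjusted p = 0.0155), and both stayed called whichever single array was removed (10 of 10 fits). With the GC trend removed Gsdmd was 0.53 and not called (limma adjusted p = 0.0549). Neither gene was called in the lower slide range, without the 3 arrays high in muscle or squamous genes, or with a replicate block. Among the other tested genes of this list, the sensor gene Mefv had 1.41 ± 0.44 (limma adjusted p = 0.0784), over 4 wild-type arrays because wild-type array 3 was dropped by an outlier mark. The adaptor Pycard had 0.41 ± 0.24 (limma adjusted p = 0.297). The sensors Nlrp3, Nlrc4 and Nlrp1a and the second cytokine Il18 had differences of 0.13 to 0.40, none called. The list had 3 genes called higher without wild-type array 5, Gsdmd, Il1b and Nlrp1a, the last at 0.72 (limma adjusted p = 0.0123), which was well above background on 3 wild-type and 5 p53-null arrays. Mefv and Pycard were not called then either (limma adjusted p = 0.0545 and 0.375). All 8 tested genes were positive, with a median of 0.40. Aim2 was well above background on no array, and Nlrp1b was not found by name.

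Several marker genes of leukocytes, which carry much of the inflammasome machinery, were also called. Of 9 neutrophil markers tested 7 rose and 0 fell, with list means of -2.13 to -1.41 in wild-type and -0.73 to 0.44 in p53-null lung. Of 8 B cell markers 7 rose (-2.20 to -0.87 against -0.29 to 0.77), and of 10 T and NK cell markers 5 rose (-2.23 to -1.51 against -1.42 to -0.97). Of 9 macrophage and monocyte markers 2 rose and 1 fell, with overlapping list means of 0.79 to 1.14 and 0.99 to 1.25. Of 6 fibroblast markers 3 fell, with list means of 4.18 to 4.47 against 3.81 to 3.97. The part of these cell types in the differences of Casp1, Gsdmd, Il1b and the other genes described was not tested.

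Of the 5 other caspases tested 0 were called (1 at an unadjusted p under 0.05, limma), with a median of -0.0037. Casp4, the sensor of intracellular lipopolysaccharide, read 1.10, 0.73, 0.85, 1.12 and 0.47 in wild-type and 1.36, 1.09, 1.47, 1.03 and 1.40 in p53-null lung, overlapping at 2 p53-null arrays, with a difference of 0.42 ± 0.15 (limma adjusted p = 0.103). It was 0.32 without wild-type array 5 (limma adjusted p = 0.0866), where again 0 of the 5 were called.

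The 9 other inhibitor of apoptosis (IAP) family genes had 0 calls (5 at an unadjusted p under 0.05, limma) and a median of 0.32, with 7 positive, where Xiap was negative. Naip5, which senses bacterial flagellin for the Nlrc4 inflammasome, had 0.39 ± 0.14 (limma adjusted p = 0.114), and 0.32 without wild-type array 5 (limma adjusted p = 0.112). Birc3, a ubiquitin ligase of tumour necrosis factor signalling, had 0.25 ± 0.10 (limma adjusted p = 0.146), with 4 of 5 p53-null arrays above every wild-type array, and 0.26 without wild-type array 5 (limma adjusted p = 0.0980). Naip1 was the 1 gene of this list called without that array, but it was well above background on only 2 wild-type and 4 p53-null arrays, so no size is given.

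Of the 6 mitochondrial death factors 1 rose, Htra2, a serine protease that like Diablo binds Xiap when released. It read 2.56, 2.37, 2.34, 2.53 and 2.80 in wild-type and 2.87, 2.82, 3.11, 2.80 and 3.09 in p53-null lung, with p53-null array 4 level with wild-type array 5. The difference was 0.42 ± 0.11 (limma adjusted p = 0.0499), at the threshold, and its call held in 1 of 10 fits with a single array removed, the one lacking wild-type array 5. With the GC trend removed it was 0.24 and not called. The median of the list was 0.23. Cycs, which encodes cytochrome c, the trigger of the apoptosome, had 0.10 ± 0.15 (limma adjusted p = 0.693), and 0.11 without wild-type array 5. Further Cycs probes were negative, at -0.16 and -0.16 (limma adjusted p over all probes = 0.464 and 0.470). They had -0.21 and -0.20 without that array, and were called in neither fit. Without wild-type array 5 the nuclease gene Endog, Septin4, which encodes an antagonist of Xiap, Aven, an inhibitor of Apaf1, and Htra2 were called higher. Aifm1, which encodes the apoptosis-inducing factor, was called lower in that fit, where 31.3% of all genes were called. The Aifm1 and Aven calls were not shared by a further probe of each gene. These had -0.023 for Aifm1 (limma adjusted p over all probes = 0.911) and 0.049 for Aven (limma adjusted p = 0.861).

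Of the 6 adaptors of Casp8 and Casp2 0 were called (1 at an unadjusted p under 0.05, limma), with a median of 0.089. Ripk1, the kinase that joins death receptor complexes, read -0.13, -0.19, 0.14, -0.092 and -0.021 in wild-type and -0.21, -0.30, -0.38, -0.38 and -0.53 in p53-null lung. The groups did not overlap, as for 3.87% of all genes in that direction, and the difference was -0.30 ± 0.088 (limma adjusted p = 0.0655). Ripk1 was the 1 gene of this list called without wild-type array 5, at -0.29 (limma adjusted p = 0.0390). A second Ripk1 probe had -0.46 (limma adjusted p over all probes = 0.0570, wild-type array 3 left out by an outlier mark) and -0.58 without wild-type array 5 (limma adjusted p = 0.0028), while another had 0.23 and 0.27 and was called in neither fit.

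Cflar, which encodes a catalytically inactive relative of Casp8 that restrains it, was read by 6 probes. The brightest had 0.14 ± 0.16 (limma adjusted p = 0.617), but 2 others were called with all 10 arrays, in opposite directions: A_52_P83888 at 0.75 (limma adjusted p over all probes = 0.0251) and A_52_P624648 at -0.39 (limma adjusted p = 0.0382). Pidd1, the p53-induced scaffold of the Casp2 platform, had 0.61 ± 0.42 (limma adjusted p = 0.381) at its brightest probe, with 0.82 without wild-type array 5 (limma adjusted p = 0.179). Its other probes had 0.56 ± 0.16 (limma adjusted p over all probes = 0.0600) and 0.61 ± 0.20 (limma adjusted p = 0.0843), and both were called without wild-type array 5, at 0.70 (limma adjusted p = 0.0025) and 0.78 (limma adjusted p = 0.0048). The brightest probe varied from -2.64 to -1.26 in wild-type and from -2.43 to -0.69 in p53-null lung.

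Of 8 substrates that caspases cut while a cell is dismantled 0 were called (0 at an unadjusted p under 0.05, limma), with a median of 0.17 and 6 positive. The chromatin condensation factor gene Acin1 had 0.27 ± 0.15 (limma adjusted p = 0.260). Its wild-type array 5 read 2.56, inside the p53-null range of 2.16 to 2.59, and the other wild-type arrays 1.86 to 2.07. Parp1, which encodes a DNA repair enzyme inactivated by caspases, had 0.19 ± 0.11 (limma adjusted p = 0.293). With wild-type array 5 left out, 2 of the 8 were called higher, Acin1 at 0.39 (limma adjusted p = 0.0253) and Gsn, which encodes the actin-severing protein gelsolin, at 0.38 (limma adjusted p = 0.0225). Parp1 was then 0.23 (limma adjusted p = 0.137). In that fit a further Acin1 probe was called at 0.40 (limma adjusted p over all probes = 0.0282), while others had -0.0066 and 0.19, not called. Further probes of other genes in the list were called in both directions. These were Lmna at 0.63 (limma adjusted p = 0.0035), Pak2 at -0.29 (limma adjusted p = 0.0104) and Rock1 at -0.44 (limma adjusted p = 0.0352). The brightest probes of Lmna, Pak2 and Rock1 were not called.

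**Figure D5:**
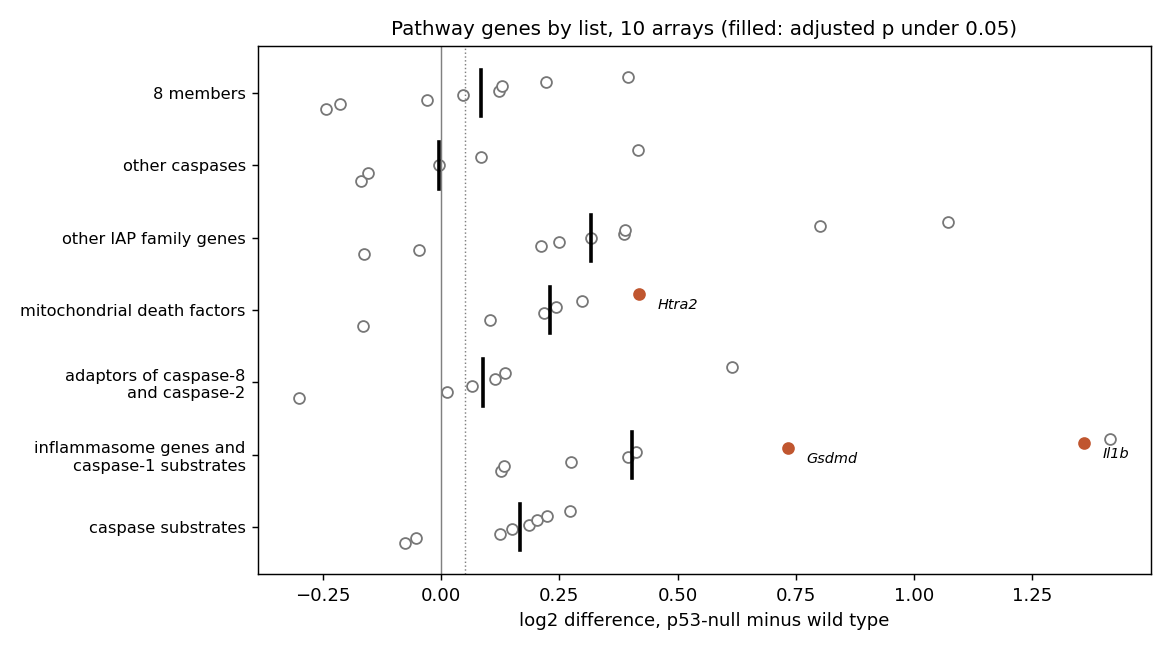
Log2 difference (p53-null minus wild type, x axis, 10 arrays) of the 8 members and of the tested genes of the 6 neighbouring lists, 1 point per gene; thick bars are list medians, the dotted line is the median of all genes tested (0.050), and filled points have a limma adjusted p under 0.05. The filled points are Htra2 (0.42), Gsdmd (0.73) and Il1b (1.36).

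Since no member was called, Casp1, with the smallest p, was compared with every other tested gene by its pattern over the 10 arrays. After each gene was centred on its own mean, Enpp1, a nucleotide pyrophosphatase, differed from Casp1 by a mean of 0.056 log2 units per array and Fam78a by 0.069, where the median gene differed by 0.30. Neither gene was called itself, at 0.32 ± 0.13 (limma adjusted p = 0.136) and 0.33 ± 0.13 (limma adjusted p = 0.131). The likeness is a description over 10 arrays chosen among 21111 genes.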

How the data were processed

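Cy3-labelled RNA of whole lung was read on Agilent arrays of 1 colour, per the labels' protocols. The deposited intensity is background-subtracted, per the file headers, and came from Agilent Feature Extraction (version 9.5, from the submitters' processing notes). The series' value table held the same numbers (largest difference 0).

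The log2 intensity of each of 43379 non-control spots was expressed relative to the array's 75th percentile. Outlier spots were dropped, repeat spots averaged, and a gene was read by its probe of highest mean. A RefSeq table of GRCm38.p6 named 23075 probes by accession, 6587 by symbol and 3072 by synonym, and 8440 kept the file's name. Testing required a signal well above background on 5 or more of the 10 arrays. The test was limma 3.58.1 (lmFit and eBayes, R 4.3.3), Benjamini-Hochberg adjusted over all genes, or over all probes where a further probe of a gene is given. The number of arrays limits the precision. Each p-value sets a difference against the spread of these samples within the groups, and the main fit held no term for slide. The code was tested on simulated data.

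The members and lists were chosen with earlier results of these data known. The rule for pathway genes named those called (at most 6 per list) or, where none was, the 2 of smallest p, of which 1 is not reported here. Other pathway genes, and those named for a call without wild-type array 5, were added after their values were seen. Likeness to Casp1 was the mean absolute difference of centred values. Alternatives changed the background, scaling, filter, choice of probe, batch terms (slide, slide range, scan day, replicate number), variance model, weights and threshold, or removed each array.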

Additional observations from a re-analysis of the deposited data

Results flagged for a closer look

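Among 78 groups of 5 values (each member probe, gene list and pathway gene named by the rule, in each genotype), 9 had 1 array set apart from the other 4 by more than 0.71 of the group's range. About 1 group in 20 is set apart this far by chance. Of the 26 groups that came from member probes, 1 was among them: Casp6 on wild-type array 5, at 2.84 with the nearest wild-type array at 2.36.

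The other 8 were list means. On wild-type array 5 the caspase substrates read 2.18 (nearest 1.95) and endothelial genes 3.48 (nearest 3.59). On wild-type array 2 the other caspases read -1.51 (nearest -1.97), skeletal muscle genes 2.74 (nearest -2.60) and squamous epithelial genes 2.52 (nearest -2.81). Squamous epithelial genes read 1.27 on p53-null array 5 (nearest -2.92), the other IAP family genes -2.09 on p53-null array 4 (nearest -1.74) and B cell genes 0.77 on p53-null array 1 (nearest 0.0036).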

How the results depend on the processing

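With 1 array left out in turn, genes called numbered 191 to 6617 (1575 with all arrays), members called higher 0 to 2, members called lower 0 to 2, pathway genes 2 to 12 and member probes 0 to 7. Wild-type array 5 gave each highest value. Any other array left out gave 191 to 965 genes, 0 members and 2 pathway genes, Htra2 being the one lost, and of member probes 0, or 1 without wild-type array 1.

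Array weights gave 6681 genes, 1 member higher, 2 lower, 11 pathway genes and 5 member probes. Other counts of all genes were 580 with median scaling, 536 with no filter, 696 with a slide range block, 319 with a scan day block, 14 in the lower slide range, 55 at an adjusted p under 0.01 and 10 without the 3 arrays high in muscle or squamous genes. The scan day block is the same fit as leaving out wild-type array 3, alone on its day, so it is no separate check. Pathway genes numbered 5 after quantile normalization, 6 with an intensity trend, and 0 in the lower slide range or without those 3 arrays. Member probes numbered 0 with normexp background, no filter, all 10 arrays well above background, either of those blocks, the lower slide range, an intensity trend or without the 3 arrays. The filter of all 10 arrays left Xiap A_51_P424893 untested, since it was well above background on 4 of 5 p53-null arrays. Apart from array weights and the fits without wild-type array 5, the 8 genes gave 0 calls in each setting run. Settings with fewer arrays or more terms have fewer residual degrees of freedom, and the cause of the other changes was not tested.

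In alternatives chosen after seeing the data, the GC trend removed gave 934 genes, 1 pathway gene and 0 member probes. Removed and without wild-type array 5, it gave 5247 genes (1956 higher, 3291 lower, against 966 and 609), 0 members higher, 2 lower, 5 pathway genes and 4 member probes.

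Replicate numbers did not pair the samples (same-number correlations -0.22 to 0.0012, none highest with its own number). A replicate block gave 25 genes, 0 pathway genes and 0 member probes.

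With single arrays left out, Casp2 ranged from -0.061 to 6.2e-04 and Apaf1 A_52_P621991 from -0.093 to 0.095. Signs turned for values near 0: Casp2 in the lower slide range (0.011) and without p53-null array 1 (6.2e-04), Casp9 with median scaling (-0.024), and Apaf1 A_52_P621991 with normexp (0.076), the slide range block (0.0077), array weights (0.073), and without wild-type array 4 (0.017) or 5 (0.095) or p53-null array 1 (0.056) or 4 (8.8e-05). This dim probe and Xiap A_51_P424893, each not well above background on 1 p53-null array, are limited most by signal.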
